A study of Mus musculus with 10 samples.

Results

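The miR-23, miR-27 and miR-24 family is made from a pair of paralogous gene clusters, and its 5 guide miRNAs (miR-23a, miR-27a, miR-23b, miR-27b and miR-24) were followed here in mouse liver. Each member was found by its exact name among the 655 probes of the array after removal of the species prefix and of any suffix, and passenger strands, which carry a star in their names, were not counted as members. Each member was matched by 1 probe, so that 5 of 655 probes were taken. The opposite-arm strands miR-27a*, miR-24-2*, miR-27b* and miR-24-1* were also on the array and are described beside the guides. All 5 guides were detected above the negative controls on all 10 arrays.

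Hepatic miRNAs were measured on 10 Illumina BeadChip arrays, 5 from wild-type (WT) FVB/N mice and 5 from LivPGC-1α mice of the same strain, all 4 months old and, by the study's account, fasted overnight. LivPGC-1α mice carry a human PGC-1α coding sequence in the pLiv7 vector, under a promoter fragment of the apolipoprotein E gene, and WT mice carry no transgene. The number of transgenic founder lines was not stated in the methods or labels, and the apolipoprotein E gene is also transcribed in cells other than hepatocytes, such as macrophages. The 5 WT arrays filled the first positions of 1 chip and the 5 LivPGC-1α arrays the last, so that chip position and genotype cannot be told apart. The labels do not state that each sample is a separate mouse, and p-values measure the spread between these samples.

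miRNAs are short RNAs that pair with messenger RNAs mainly through their seed, the bases 2 to 8 from the 5′ end, and lower the output of the paired transcript. PGC-1α is a transcriptional coactivator that rises in the fasted liver and drives gluconeogenesis, mitochondrial biogenesis and fatty acid oxidation. The miR-23a cluster and the miR-23b cluster each produce a miR-23, a miR-27 and a miR-24. miR-23a has been described to repress PGC-1α mRNA, miR-27a and miR-27b repress regulators of lipid metabolism such as PPARγ, miR-24 has been described to repress Insig1, an inhibitor of sterol synthesis, in hepatocytes, and miR-23b cluster members have been described to repress Smad genes in foetal liver cells. Both clusters are also abundant in endothelial cells, and in bulk liver a change in the number of such cells cannot be told apart from a change in RNA per cell.

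The guide sequences are shown because miR-27a and miR-27b are nearly the same molecule, which bears on what each probe can separate. They were taken from RefSeq on GRCm38.p6, in which 4 of the 5 members had a mature entry. miR-23b had none, so that miR-23a and miR-23b were not compared. Capitals mark the seed.
miR-23a: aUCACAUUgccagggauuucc
miR-27a: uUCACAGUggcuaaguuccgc
miR-27b: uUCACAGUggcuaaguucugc
miR-24: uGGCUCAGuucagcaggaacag

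miR-23a lay at chr8:84208563-84208583, miR-27a at chr8:84208727-84208747 and miR-27b at chr13:63300760-63300780, all on the plus strand. miR-24 had the same sequence at both of its loci, chr8:84208875-84208896 and chr13:63301251-63301272, so that its probe cannot be assigned to a cluster. miR-27a and miR-27b shared their seed and differed at 1 base, C19U, counted from the 5′ end of miR-27a. Whether the array separates the miR-27 paralogs at that base, or miR-23a from miR-23b, was not tested. The seeds of miR-23a, of the miR-27 pair and of miR-24 all differed.

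The passenger strands are shown because they differ more between clusters than the guides do and have the only miR-24 probes named for 1 cluster.
miR-27a*: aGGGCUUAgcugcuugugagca
miR-27b*: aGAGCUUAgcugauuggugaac
miR-24-2*: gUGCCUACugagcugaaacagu
miR-24-1*: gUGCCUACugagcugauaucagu

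miR-27a* and miR-27b* differed at 8 positions when set base against base without gaps, or by 5 single-base edits with gaps, and one of these, G3A counted from the 5′ end of miR-27a*, lay within the seed. miR-24-2* and miR-24-1* shared a seed and, with gaps allowed, differed by 2 single-base edits near their 3′ ends, 1 of them the extra base of the longer miR-24-1*.

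The a cluster spanned 404 bases, chr8:84208518-84208921, and held Mir23a, Mir27a and Mir24-2 in that order. It overlapped no protein-coding gene, and its nearest coding neighbours were Nanos3 and Zswim4. The b cluster spanned 792 bases, chr13:63300484-63301275, and held Mir23b, Mir27b and Mir24-1 within Aopep, which encodes aminopeptidase O. Its nearest other coding neighbours were Fbp1, which encodes the gluconeogenic enzyme fructose-bisphosphatase 1, and Fancc. Transcription ran along the plus strand in both clusters, and the annotation used here gave no exon positions. The deposited tables name no genome build but place the members on chromosomes 8 and 13 as RefSeq does.

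Signals are given as scanner intensity after quantile normalization, which gives every array the same set of values, and a change is the mean log2 signal of LivPGC-1α less that of WT. Each array detected between 423 and 482 probes. WT 1, WT 3 and WT 5 stood apart from the other 7 arrays, with a standard deviation (SD) of their probes around the group mean between 0.33 and 0.37 against 0.10 to 0.18. The hepatocyte miRNAs miR-122, miR-192, miR-194 and miR-148a were each detected on all arrays, with miR-122 between rank 3 and rank 5 of the 655 probes on every array. The summed signal of the endothelial markers miR-126-3p and miR-126-5p lay between 103297 and 106891 in WT and between 104935 and 106891 in LivPGC-1α. They held ranks 5 to 9 and 1 to 3, where quantile normalization gives values that lie close together. Their sum therefore says little on endothelial cell number, and the signal of miR-122 has the same limit. The striated muscle markers summed to between 3924 and 85234 in WT, with WT 1 the highest, and to between 4250 and 4555 in LivPGC-1α. Of these 4 muscle miRNAs, only miR-133a was detected on every array. The part of that muscle signal in the guides' results was not tested.

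The 5 guides gave strong and steady signals in both genotypes. Because each probe has its own hybridization strength, signals of different probes are set side by side without an order of abundance between the miRNAs.

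Among the guides of the a cluster, miR-23a had the widest spread between arrays. Its normalized signal was 26513, 25307, 27166, 25307 and 25966 in WT 1 to WT 5, and 23311, 25017, 27166, 27005 and 27166 in LivPGC-1α 1 to LivPGC-1α 5. The groups overlapped over most of their range, and LivPGC-1α 1 was the lowest of the 10 arrays. WT averaged 26052 ± 802 (SD, n = 5) and LivPGC-1α 25933 ± 1725 (SD, n = 5), at ranks 73 to 87 on the array.

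miR-27a, the guide of the middle hairpin of the same cluster, read 43854, 43989, 43854, 43773 and 42021 in the WT arrays and 43225, 43622, 43225, 43773 and 43854 in the LivPGC-1α arrays. Apart from a low value in WT 5, the arrays differed little and the groups overlapped. Its means were 43498 ± 829 (SD, n = 5) and 43540 ± 299 (SD, n = 5), at ranks 28 to 37.

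In the b cluster, miR-23b read 44683, 43773, 44683, 43854 and 43327 in WT and 44947, 43989, 44162, 43854 and 44447 in LivPGC-1α. The LivPGC-1α values fell within or just above the WT range, with WT averaging 44064 ± 600 (SD, n = 5) and LivPGC-1α 44280 ± 434 (SD, n = 5), at ranks 23 to 33.

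miR-27b read 34286, 33337, 34522, 34992 and 33621 in WT, and 34522 in LivPGC-1α 1 against 34044 in each of the other 4 LivPGC-1α arrays. The equal values arose because quantile normalization gives the same number to the same rank, and on those 4 arrays miR-27b held rank 59. Its means were 34152 ± 672 (SD, n = 5) and 34140 ± 214 (SD, n = 5), at ranks 55 to 61 over all arrays.

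miR-24, which either cluster can supply, read 43773, 43327, 43482, 44558 and 43482 in WT and 43482, 43225, 43125, 43225 and 43225 in LivPGC-1α. LivPGC-1α 2 to LivPGC-1α 5 lay below the lowest WT array, WT 2, by a small margin, and LivPGC-1α 1 lay within the WT range, so that the groups overlapped. The means were 43725 ± 493 (SD, n = 5) in WT, at ranks 25 to 33, and 43257 ± 133 (SD, n = 5) in LivPGC-1α, at ranks 32 to 35.

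**Figure D1:**
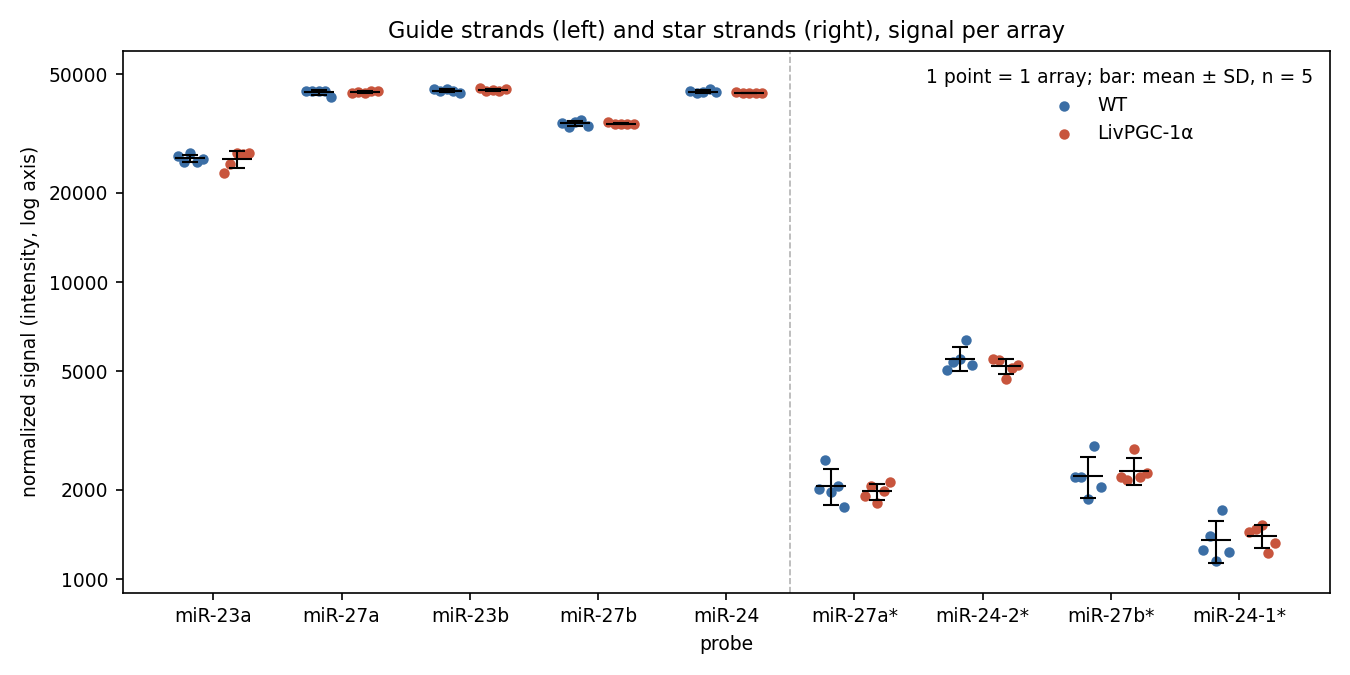
Normalized signal (intensity, logarithmic axis) of the 5 guide probes and the 4 passenger-strand probes, 1 point per array, with horizontal bars for the mean and error bars for the SD of 5 WT or 5 LivPGC-1α arrays. The guides sit between 23311 and 44947 and the passenger strands between 1154 and 6385, and the genotypes overlap for every probe.

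No guide passed the threshold between genotypes. By limma with Benjamini-Hochberg adjustment over the 513 tested probes, 0 of 5 guides had an adjusted p under 0.05, against 2 of all tested probes (0.39%). Without adjustment 0 of 5 guides passed 0.05 by limma, against 74 probes (14.4%). The exact two-sided permutation test on single probes put 1 of 5 guides, miR-24, under 0.05, against 73 of all tested probes (14.2%). The groups did not overlap for 0 of 5 guides and for 25 of all tested probes (4.87%). 2 guides had changes above 0 and 3 below, and among all tested probes 292 were above and 221 below.

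The change of miR-23a was -0.0087 (95% interval -0.12 to 0.10, limma adjusted p = 0.967), that of miR-27a was 0.0016 (-0.050 to 0.053, adjusted p = 0.996) and that of miR-23b was 0.0071 (-0.042 to 0.057, adjusted p = 0.945). miR-27b changed by -0.0003 (-0.052 to 0.052, adjusted p = 0.998). The intervals of the 4 guides other than miR-23a did not reach 0.10 in either direction. With a linear term for chip position, miR-23a stood at -0.13 (95% interval -0.34 to 0.079, limma adjusted p = 0.756), its lowest value among the alternatives run. Without WT 1, WT 3 and WT 5 the changes were 0.025 for miR-23a, -0.011 for miR-27a, 0.015 for miR-23b, -0.00065 for miR-27b and -0.023 for miR-24, and none passed the threshold. The intervals given cover the spread between arrays under 1 scaling and not the choice of scaling.

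miR-24 had the largest size of change among the guides, -0.015 with a standard error (SE) of 0.021 (95% interval -0.062 to 0.031). Its exact permutation p was 0.0317 and its limma p 0.476, or 0.787 after adjustment. limma draws each probe's variance towards that of all probes, and miR-24 varied less within genotypes than most. Its SD of log2 signal, pooled from the SDs of WT and LivPGC-1α, was 0.012. Its SD stood at the 0.78th percentile of the tested probes, that of miR-23b at the 2.92nd, that of miR-27a at the 4.87th, that of miR-27b at the 5.07th and that of miR-23a at the 28.3rd. The highest array exceeded the lowest by 1.03-fold for miR-24, 1.04-fold for miR-23b, 1.05-fold for miR-27a and miR-27b, and 1.17-fold for miR-23a.

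By their medians, the guides changed and varied less than the bright probes as a set. The difference was not tested and not matched for signal level, and miR-23a was an exception with an SD of 0.076. The median size of change was 0.0071 over the 5 guides, 0.020 over the 103 tested probes with a mean signal over 20000 and 0.064 over all tested probes. The median SD within genotypes was 0.021 for the guides, 0.048 for the bright probes and 0.107 for all tested probes. The bright set includes the 5 guides. A small spread was not particular to the guides. At signals near that of miR-23b, WT arrays gave 44419 ± 429 for let-7g but a wider 45572 ± 2027 for miR-143 (SD, n = 5). These are examples and do not show how usual a small spread was at that signal.

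The passenger strands gave weaker and more scattered signals. miR-27a*, the opposite arm of the miR-27a hairpin, read 2005, 2527, 1961, 2052 and 1750 in WT and 1909, 2061, 1803, 1974 and 2121 in LivPGC-1α, with a change of -0.053 (95% interval -0.25 to 0.15, limma adjusted p = 0.868). miR-27b*, its counterpart in the b cluster, read 2216, 2200, 1864, 2807 and 2040 in WT and 2200, 2155, 2735, 2216 and 2284 in LivPGC-1α, a change of 0.067 (-0.18 to 0.31, adjusted p = 0.854). The groups overlapped for both, and the intervals were wider than those of the guides.

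For miR-24 the passenger strands differ in sequence between the loci, and whether their probes separate them was not tested. miR-24-2*, from the a cluster, read 5077, 5361, 5494, 6385 and 5262 in WT and 5494, 5446, 4701, 5128 and 5262 in LivPGC-1α, with means of 5516 ± 509 (SD, n = 5) and 5207 ± 318 (SD, n = 5). Its change was -0.081 (SE 0.067, limma adjusted p = 0.639, exact permutation p = 0.357). miR-24-1*, from the b cluster, read 1258, 1401, 1154, 1706 and 1238 in WT and 1445, 1478, 1520, 1222 and 1329 in LivPGC-1α, a change of 0.059 (95% interval -0.18 to 0.30, limma adjusted p = 0.892). For both, the arrays of one genotype lay among those of the other, and 0 of 4 passenger strands passed 0.05 by limma or by the exact permutation test.

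The question of unequal change between paralogs was put within each array, as the log2 signal of the b member minus that of the a member. This difference removes any scale factor common to an array, and its absolute value also holds the probes' own strengths, so that only its change between genotypes is read. For miR-23, WT arrays gave 0.76 ± 0.03 (SD, n = 5) and LivPGC-1α arrays 0.77 ± 0.11 (SD, n = 5). LivPGC-1α 1 stood at 0.95 and the other 9 arrays between 0.70 and 0.81. The genotypes differed by 0.016 (SE 0.050, exact permutation p = 0.825, adjusted over the 2 pairs p = 0.889), and without LivPGC-1α 1 by -0.027.

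For miR-27, WT arrays gave -0.35 ± 0.03 (SD, n = 5) and LivPGC-1α arrays -0.35 ± 0.02 (SD, n = 5), a change of -0.0019 (SE 0.016, exact permutation p = 0.889). No unequal change of the paralogs was detectable at this precision. A probe that also binds the other paralog would shrink such a difference, and this was not tested. Computed from the unscaled signals, the miR-23 difference between genotypes was 0.095 (exact permutation p = 0.222).

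**Figure D2:**
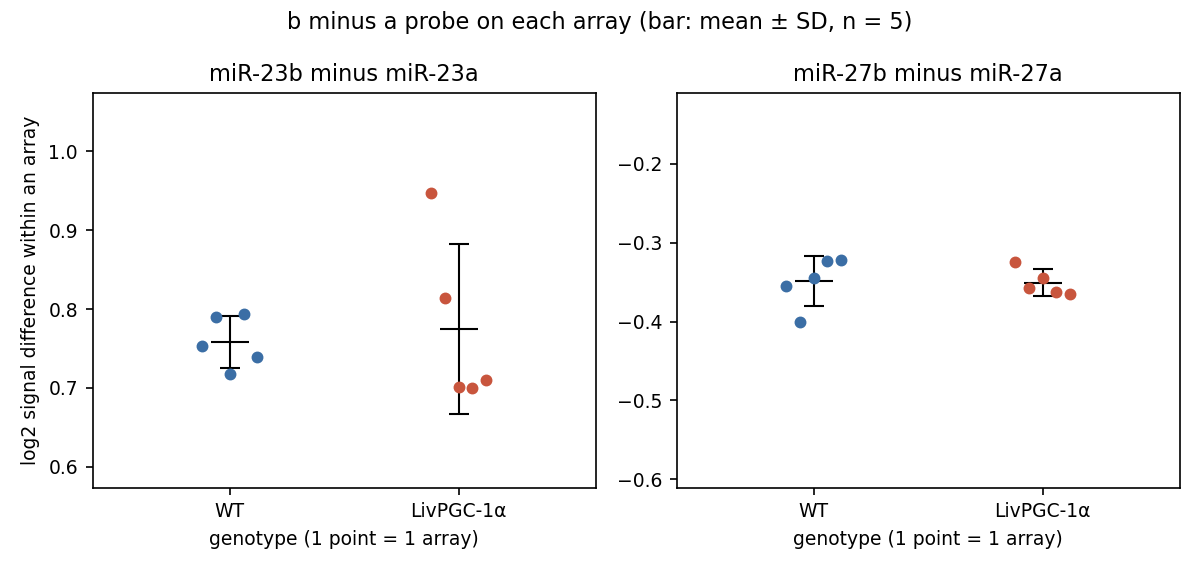
Within-array log2 difference of the b member minus the a member for miR-23 and miR-27, 1 point per array, with the mean and SD of 5 WT and 5 LivPGC-1α arrays. The miR-23 difference of LivPGC-1α 1 stands at 0.95, and the means of the genotypes differ by 0.016 for miR-23 and by -0.0019 for miR-27.

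The same difference for the passenger strands, chosen after their values were seen, was 0.11 ± 0.25 in WT and 0.23 ± 0.22 in LivPGC-1α (SD, n = 5 each) for miR-27b* minus miR-27a*, a change of 0.12 (SE 0.15, exact permutation p = 0.452). For miR-24-1* minus miR-24-2* it was -2.04 ± 0.14 in WT and -1.90 ± 0.17 in LivPGC-1α (SD, n = 5 each), a change of 0.14 (SE 0.097, exact permutation p = 0.206). Neither passed the test.

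The sizes of these small changes, and the sign of those of miR-23a, miR-27a, miR-27b and miR-24, depended on how the arrays were scaled to each other. When each array was divided by the 75th percentile of all its probes, miR-27a was at 0.17, miR-23b at 0.19, miR-27b at 0.17 and miR-24 at 0.16, and these 4 guides passed the adjusted threshold by limma (adjusted p = 0.0403, 0.0403, 0.0429 and 0.0497), while miR-23a was at 0.095 (adjusted p = 0.400). Under that scaling the median of all tested probes was at 0.075, 71.2% of them were above 0 and 80 were called, against 2 under quantile normalization.

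Under the other scalings no guide was called. With each array centred on 98 other bright probes, an alternative chosen after the data were seen, the median of all tested probes was at -0.108 and 16.6% of them were above 0. The guides then lay between -0.089 (miR-23a) and 0.0064 (miR-23b), and 42 probes (8.19%) were called by limma, against 2 under quantile normalization. With no scaling the median of all tested probes was -0.011, and the guides stood at 0.0081 for miR-23a, 0.085 for miR-27a, 0.10 for miR-23b, 0.083 for miR-27b and 0.078 for miR-24. Set against the median of all tested probes, a difference that a common factor per array cannot move, the changes were 0.019 for miR-23a, 0.096 for miR-27a, 0.115 for miR-23b, 0.095 for miR-27b and 0.089 for miR-24. Quantile normalization is not such a factor, and under it every guide lay below that median, from -0.027 (miR-24) to -0.0047 (miR-23b). The median of all tested probes is not matched to the guides for signal level. miR-23b was above 0 under all 27 alternatives run, and the other 4 guides each crossed 0 under at least 1. The lowest value of miR-23b was 0.00084, without WT 5. The alternatives reuse the same arrays and are not independent. Those that alter only the detection filter, the variance prior or the replicate block cannot move a change, so they add nothing to such a count. How many of all tested probes kept their sign throughout was not counted.

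Among the passenger strands, miR-24-2* was below 0 under all 27 alternatives, which reuse the same arrays and include those that cannot move a change. It came nearest to 0 at -0.026 without WT 4. With centring on the bright probes it stood at -0.26 (limma adjusted p = 0.0264), with all LivPGC-1α arrays below all WT arrays (exact permutation p = 0.00794, the smallest that 5 against 5 arrays can give). Under that centring LivPGC-1α lay wholly below WT for 62 of the 513 tested probes (12.1%). The change of miR-24-2* relative to the median of all tested probes was -0.154 under that centring and -0.093 under quantile normalization. The difference between b and a cluster passenger strands does not depend on a factor common to an array, and it was 0.130 for miR-27 and 0.146 for miR-24 in each scaling by such a factor. The miR-27 passenger difference turned to -0.058 once chip position entered the model as a linear term.

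**Figure D3:**
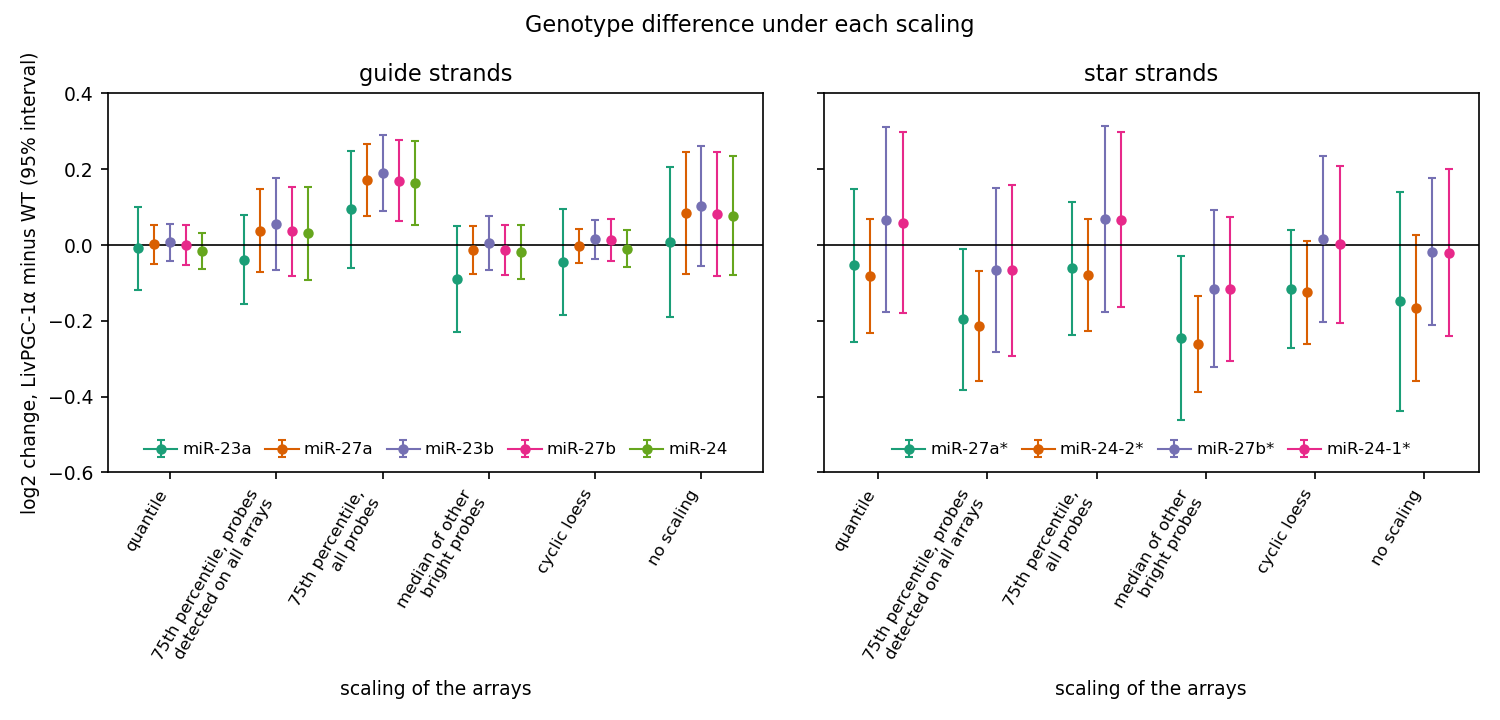
log2 change (LivPGC-1α minus WT) with its 95% interval for the 5 guides (left) and 4 passenger strands (right) under 6 scalings of the arrays. Under quantile normalization the guides lie between -0.015 and 0.0071, and 4 of them move to between 0.16 and 0.19 with the 75th percentile of all probes.

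Covariation of the members over the 10 arrays was weak once the arrays were quantile-normalized. The guides other than miR-23a then differed between arrays by 1.05-fold at most, in shifts of few ranks with ties, which limits what r can show. Of the 10 pairs, 0 passed the adjusted threshold and 1 passed 0.05 without adjustment by a permutation test with 100000 resamples. That pair was miR-27b and miR-24 (Pearson r = 0.66, permutation p = 0.0413, adjusted over the 10 pairs 0.413, Spearman rho = 0.56 with permutation p = 0.0966). Without WT 2 and WT 4, the arrays farthest from the median of miR-27b, r was 0.34. With each genotype centred on its own mean the pair rose to r = 0.82 (permutation adjusted p = 0.0305).

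Within the clusters, the b pair miR-23b and miR-27b had r = 0.51 (rho = 0.63, permutation p = 0.136 and 0.0547), and the a pair miR-23a and miR-27a had r = 0.16 (rho = 0.25, permutation p = 0.645 and 0.472). Of the pairs across clusters, miR-27a and miR-23b had r = 0.42, and the paralogs miR-27a and miR-27b had r = 0.26. Without WT 5 these r values turned to -0.30 and -0.23. The r of the b pair was 0.28 without WT 5 and LivPGC-1α 1, the arrays farthest from the median of miR-23b. Every pair with miR-23a lay between -0.24 and 0.16. Without LivPGC-1α 1, where miR-23a was lowest, the pairs with miR-23a ran from -0.39 (miR-24) to 0.55 (miR-23b). The median r was 0.13 over the 10 member pairs and 0.045 over all 131328 pairs of tested probes. Each genotype alone has 5 arrays, too few for a correlation.

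On the unscaled signals miR-23a differed from the other guides. The 6 pairs among miR-27a, miR-23b, miR-27b and miR-24 had r between 0.976 and 0.988 (permutation adjusted p between 1e-04 and 0.00125), and the 4 pairs with miR-23a had r between 0.44 and 0.56 (adjusted p between 0.0871 and 0.174). The median r of all pairs of tested probes was 0.459 on that scale. The unscaled signals of these guides also followed the brightness of the array: with the median signal of the 98 bright reference probes, which ranged from 31226 to 39409, r was 0.976 for miR-27a, 0.952 for miR-23b, 0.965 for miR-27b, 0.950 for miR-24 and 0.62 for miR-23a.

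After centring on those bright probes the 6 pairs kept r between 0.76 and 0.92 (permutation adjusted p between 0.0078 and 0.0167), and the pairs with miR-23a fell between -0.38 and -0.027. On LivPGC-1α 1 miR-23a stood at -0.26 from its centred mean, and the unscaled and centred pairs were not computed without that array. The median r of all pairs of tested probes was 0.206 under that centring, with 10% of pairs above 0.683. With cyclic loess the 6 pairs had r between 0.39 and 0.65, and 0 of them passed. In unscaled log2 signal the 4 guides ranged over 0.28 to 0.30 and the reference median over 0.34, so that centring need not remove all array brightness. After centring, all 4 lay below their means on WT 2 and LivPGC-1α 2, the arrays with the brightest reference. On the dimmest, WT 4, all 4 lay above, and on WT 1 they lay between -0.010 and 0.0048. Whether the 4 probes share anything beyond array brightness was not tested.

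**Figure D4:**
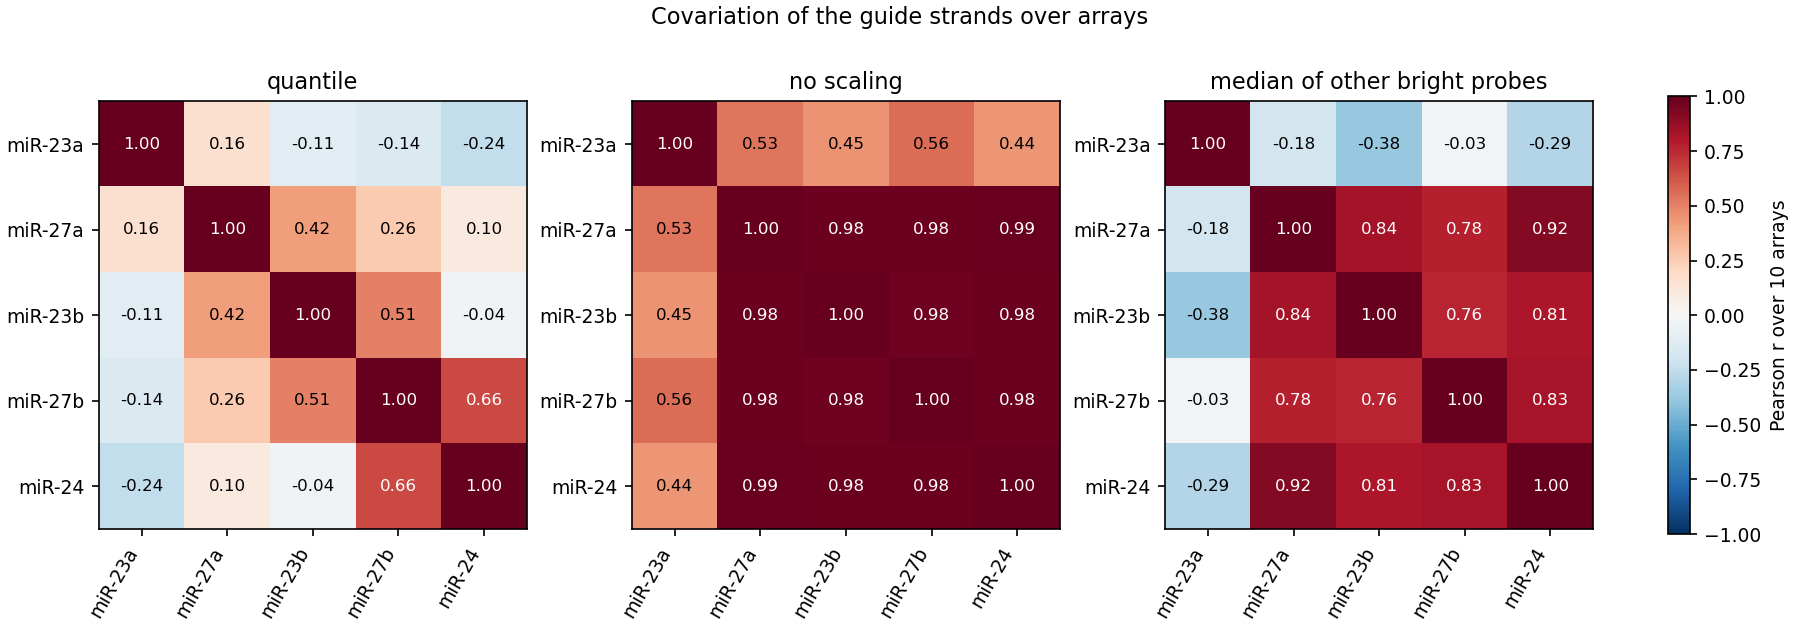
Pearson r over 10 arrays for each pair of guides with quantile normalization, with no scaling and with centring on the median of 98 other bright probes. The 6 pairs without miR-23a reach 0.976 to 0.988 with no scaling and 0.76 to 0.92 after centring, and the pairs with miR-23a lie lower in each of these.

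The probes whose profiles were most like each guide were sought among 403 other probes detected on all arrays, by Pearson r over the 10 quantile-normalized arrays. miR-27a was most like let-7d (0.92) and the hepatocyte miRNA miR-122 (0.90), miR-24 like miR-106b (0.89) and miR-339-3p (0.88), and miR-23b like miR-22 (0.85) and miR-342-3p (0.79). miR-27b was most like miR-26b (0.85) and miR-146b (0.75), and miR-23a like the provisional solexa-201-2163 (0.75) and miR-25 (0.70). These are the highest of 403 values each, and several rest on 1 array. Without WT 5, the array farthest from the median of miR-27a, its r was 0.53 with let-7d and 0.23 with miR-122. Without LivPGC-1α 1, r of miR-23a was 0.60 with solexa-201-2163 and 0.088 with miR-25. Without WT 4, r of miR-24 was 0.57 with miR-106b and 0.67 with miR-339-3p. The r values of miR-23b and miR-27b without their farthest arrays, LivPGC-1α 1 and WT 4, lay between 0.76 and 0.85.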

How the data were processed

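The authors hybridised total liver RNA to Illumina Universal BeadChips and deposited GenomeStudio intensity values with no background subtraction, and beside each the deposited detection p-value against negative controls. A deposited table of the authors' quantile-normalized intensity served as an alternative. Precision is limited by the 10 arrays.

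Scanner intensities were quantile-normalized over 655 probes (values under 1 raised to 1), log2-transformed and compared by limma 3.58.1 (R 4.3.3), with Benjamini-Hochberg adjustment over the 513 probes detected (p at most 0.01) on at least 1 array. 142 probes were detected on none. For single values, two-sided exact permutation tests were used (smallest p 0.00794), and for correlations 100000 resamples (Python 3.11.15, scipy 1.17.1, numpy 2.4.6). The fit was tested on simulated data. Named were all guides, their star strands, the marker miRNAs and the 2 most similar probes per guide. Members and lists were chosen with earlier results of these data known. Scalings, background corrections, detection filters, array weights, chip position, the replicate block and left-out arrays were tried as alternatives.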

Additional observations from a re-analysis of the deposited data

Results flagged for a closer look

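Groups of 5 arrays were searched for an array whose gap to its neighbour took more than 0.71 of the group's range. Of 26 such checks 5 exceeded that, and 1.3 would be expected at the chance rate of 1 in 20. That rate holds for independent values without ties. These checks share probes and hold tied values, so the counts cannot be read as an excess.

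miR-27a in WT 5 read 42021, below the 43773 to 43989 of the other WT arrays (0.893 of the range). miR-27b in LivPGC-1α 1 read 34522, above 4 arrays tied at 34044 (1.0 of the range), a value that follows from the tie. miR-24 in LivPGC-1α 1 read 43482, above a next value of 43225 (0.720 of the range), which is a gap of few ranks. miR-27b* in LivPGC-1α 3 read 2735 against a next value of 2284 (0.756 of the range), and on the same array the within-array difference of miR-27b* minus miR-27a* was 0.60 against a next value of 0.20 (0.738 of the range).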

How the results depend on the processing

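The genotype comparison called 2 probes, and 1 with no scaling, with cyclic loess or with a trend and robust variance prior. It called 0 with a linear term for chip position, with the replicate block, without WT 1 and WT 3, and without WT 1, WT 3 and WT 5, although 36, 59, 51 and 53 probes passed 0.05 in limma before adjustment. It called 80 with the 75th percentile of all probes (168 before adjustment) and 42 with bright-probe centring (160 before adjustment), and 0 to 4 when 1 array was left out. The number of guides called went from 0 to 4 with the 75th percentile of all probes. The cause was not tested.

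The replicate numbers did not pair the samples: deviations of same-numbered arrays correlated at -0.152, 0.326, -0.133, -0.121 and -0.367. With the replicate block no guide was called, and the miR-23 and miR-27 paralog differences each had an exact sign-flip permutation p of 0.875, where 0.0625 is the smallest possible.

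The miR-23 paralog difference turned to -0.0099 without WT 1, WT 3 and WT 5, was 0.17 with chip position, and ranged from -0.027 to 0.035 with 1 array left out. The miR-27 paralog difference turned to 0.015 with cyclic loess and 0.010 without WT 1, WT 3 and WT 5, and ranged from -0.013 to 0.0053. The passenger difference of miR-27 turned to -0.058 with chip position. Covarying guide pairs went from 0 to 6 with no scaling, with either 75th percentile and with bright-probe centring, to 1 around genotype means, and to 1 without WT 4 (miR-23b and miR-27b, r = 0.85, permutation adjusted p = 0.0291), with a range of 0 to 1 over single arrays left out.

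Single probes changed sign by small amounts, none past the threshold unless named as called. miR-23a turned to 0.0081 with no scaling, 0.095 with the 75th percentile of all probes, 0.017 without WT 1 and WT 3, and 0.025 without WT 5 as well, with a range of -0.027 to 0.029 over single arrays left out. miR-27a turned to -0.0024 with cyclic loess, -0.012 with bright-probe centring, -0.0040 with array weights and -0.011 without WT 1, WT 3 and WT 5 (range -0.011 to 0.0053). miR-27b turned to 0.083 with no scaling, 0.036 and 0.17 with the 75th percentile of detected and of all probes, 0.013 with cyclic loess, 0.0064 with chip position and 0.0061 without WT 1 and WT 3 (range -0.0078 to 0.0074). miR-24 turned to 0.078 with no scaling and 0.031 and 0.16 with the 75th percentile of detected and of all probes. miR-27a* turned to 0.060 with chip position (range -0.11 to 0.023). miR-27b* turned to -0.018 with no scaling, -0.065 with the 75th percentile of detected probes, -0.11 with bright-probe centring, -0.021 with array weights, -0.013 without WT 1 and WT 3 and -0.11 without WT 5 as well. miR-24-1* turned to -0.020 with no scaling, -0.067 with the 75th percentile of detected probes, -0.12 with bright-probe centring, -0.035 without WT 1 and WT 3 and -0.14 without WT 5 as well.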
